A study of Mus musculus with 55 samples.

Results

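Adult mice that had been through chronic social defeat stress (CSDS) were compared with unstressed mice in the ventral dentate gyrus, with both housings pooled. The question was which transcripts differed with defeat whatever the housing and whatever the behavioral outcome. All 54 mice of the series entered the comparison. They were 35 defeated mice, 19 of them susceptible (SUS) and 16 resilient (RES) by the social interaction test, and 19 unstressed control mice. By the study's methods all were male C57BL/6J mice, with no transgene or deletion named, raised from a young age in standard housing (SH) or an enriched environment (EE). The SH mice comprised 10 controls, 7 RES and 10 SUS, and the EE mice comprised 9 controls, 9 RES and 9 SUS. In CSDS a mouse is attacked repeatedly by an unfamiliar larger CD-1 male and lives beside it behind a perforated divider. By the study's methods a session ended early when a mouse was wounded. Attack, its physical consequences and life beside an aggressor cannot be told apart in this comparison. Each sample was total RNA from a small punch of frozen brain from 1 mouse, and the sources used here do not mention perfusion. EE control mouse 9 was sequenced in 2 runs, which were summed, so that 55 libraries gave 54 mice.

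Library depth and tissue content were checked first. The libraries held between 32223034 and 49990637 read pairs. None of 8 technical measures, among them depth and the shares of unmapped, multimapping and mitochondrial pairs, differed between defeated and control mice in permutation tests within housing (smallest p = 0.26, adjusted p = 0.934). The defining marker of the labeled tissue was present in every mouse. Prox1, the transcription factor of dentate granule cells, lay between 79.6 and 210 CPM (read pairs scaled to library size) in controls and between 96.5 and 193 CPM in defeated mice. The punches also held varying amounts of neighboring tissue. Ttr, the transthyretin transcript of choroid plexus, exceeded 100 CPM in 6 mice, 4 of them defeated, and stood at a median of 0.6 CPM in controls and 0.278 CPM in defeated mice. In a bulk punch, fewer cells of a type and less RNA per cell cannot be told apart.

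Few transcripts differed, and 7 of the 9 that did belong to a list of hemoglobin and red cell genes. The list was chosen with earlier results of these data known, so this count is a description. Of 18283 genes tested, 9 (0.0492%) passed an adjusted p of 0.05 in the quasi-likelihood test of edgeR with housing as a covariate, and all of them were higher in defeated mice. They were the 4 adult globin genes Hbb-bt, Hbb-bs, Hba-a1 and Hba-a2, the heme synthesis gene Alas2, the anion exchanger gene Slc4a1, Tent5c, Ube2l6 and Apol11b. No gene was called lower. At an unadjusted p of 0.05, 449 genes (2.46%) were higher and 450 (2.46%) were lower, 4.92% in all. DESeq2 called 13 genes (0.0711%) and limma-voom called 6 (0.0328%). At an unadjusted p of 0.05 with a fold over 1.3, limma-voom gave 93 genes (0.509%).

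**Figure D1:**
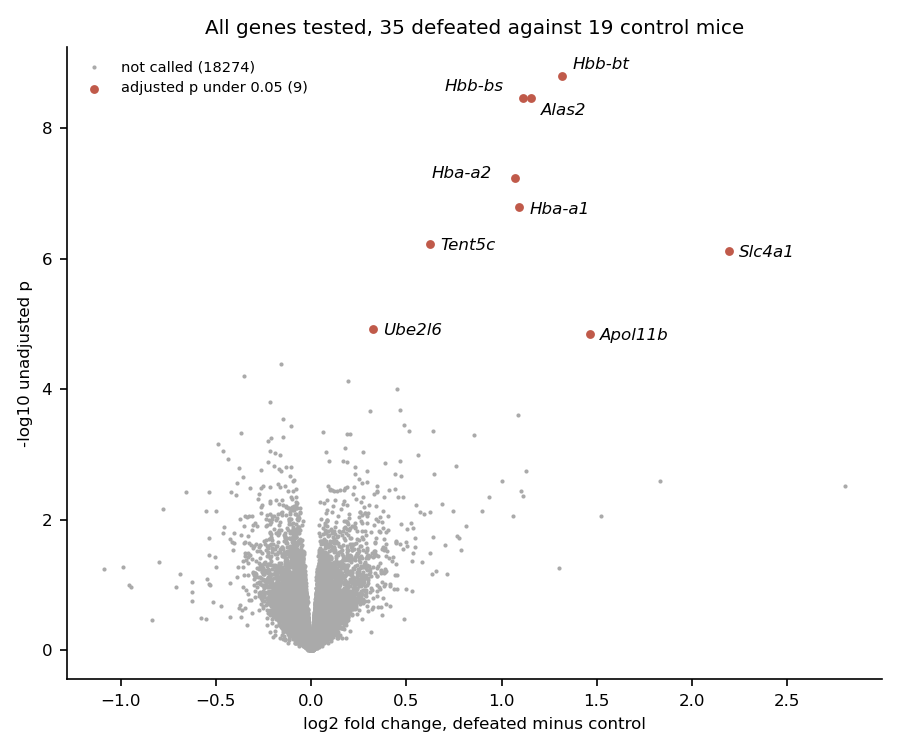
The log2 fold change of each of the 18283 genes tested (defeated minus control mice, horizontal) is plotted against its -log10 unadjusted p (vertical). The 9 genes with an adjusted p under 0.05 (red) all lie to the right of 0, with Slc4a1 at 2.19 and Ube2l6 at 0.32, and the other genes (gray) spread to both sides.

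Hemoglobin carries oxygen in red cells as a tetramer of alpha and beta globin chains around heme. Precursors of red cells make globin and heme together in the bone marrow and, in mice, in the spleen. Young red cells that have shed their nucleus still carry globin messenger RNA when they enter the blood, so a piece of brain that holds blood yields these transcripts. Low globin expression has also been described in neurons and glia. The control regions of the globin genes and of Alas2 are known to be read by GATA1 and KLF1, the factors that direct red cell development, at GATA and CACCC sequences.

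The promoters of the called genes were taken from RefSeq (build GRCm38.p6) as the 250 bases before the annotated start, and 8 of the 9 genes had an entry. Slc4a1 had none. Those of a pair of beta globin genes, 1 alpha globin gene and Alas2 are shown because these genes differed most surely and share a known mode of regulation. Capitals mark the GATA sequence AGATAA and its variant TGATAA, the CACCC box, the CCAAT box and the TATAAA box. Matches on both strands are marked, so that a GGGTG is a CACCC box of the other strand and an ATTGG is a CCAAT box of the other strand. No matches within a promoter shared a base.
Hbb-bs: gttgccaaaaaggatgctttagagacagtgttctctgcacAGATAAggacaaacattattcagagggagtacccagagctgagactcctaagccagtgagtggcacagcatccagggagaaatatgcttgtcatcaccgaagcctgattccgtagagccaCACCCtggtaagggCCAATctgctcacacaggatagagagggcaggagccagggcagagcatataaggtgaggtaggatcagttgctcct
Hbb-bt: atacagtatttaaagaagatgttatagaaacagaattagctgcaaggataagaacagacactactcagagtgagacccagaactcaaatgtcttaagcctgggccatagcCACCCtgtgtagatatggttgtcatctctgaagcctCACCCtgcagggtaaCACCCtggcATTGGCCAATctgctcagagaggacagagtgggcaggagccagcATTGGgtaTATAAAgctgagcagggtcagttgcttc
Hba-a2: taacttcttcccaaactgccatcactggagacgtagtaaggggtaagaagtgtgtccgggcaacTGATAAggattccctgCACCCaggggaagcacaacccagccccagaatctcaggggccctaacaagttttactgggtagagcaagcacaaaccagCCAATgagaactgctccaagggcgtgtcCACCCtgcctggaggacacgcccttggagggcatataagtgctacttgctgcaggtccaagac
Alas2: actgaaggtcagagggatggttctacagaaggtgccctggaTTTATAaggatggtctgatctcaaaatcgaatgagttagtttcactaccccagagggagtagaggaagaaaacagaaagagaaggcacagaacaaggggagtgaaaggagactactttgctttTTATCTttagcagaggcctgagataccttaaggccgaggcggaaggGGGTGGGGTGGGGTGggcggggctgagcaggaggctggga
The Hbb-bs window lies at chr7:103827929-103828178 and the Hbb-bt window at chr7:103813924-103814173, both on the minus strand. The Hba-a2 window lies at chr11:32296242-32296491 and the Alas2 window at chrX:150547167-150547416, both on the plus strand. The windows end at RefSeq starts. By the GENCODE gene coordinates given below, each of them overlaps the start of its gene. Within these windows AGATAA or TGATAA occurred in 5 of the 8 promoters (Hbb-bs, Hba-a1, Hba-a2, Alas2 and Apol11b), against 16.6% of all 32851 promoters of the same length. CACCC occurred in 7 of the 8, all but Tent5c, against 52.0% of all promoters. CCAAT occurred in 5 of the 8 (33.8% of all) and TATAAA in Hbb-bt and Alas2 only (12.4% of all). The promoters of Hba-a1 and Hba-a2 were identical over the 247 bases that their windows share, so these count as 1 sequence, and those of Hbb-bs and Hbb-bt were identical at 71.7% of aligned bases. These matches describe the windows and are not evidence of binding.

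The beta globin genes lie side by side on chromosome 7. Hbb-bs (ENSMUSG00000052305, chr7:103826534-103828096) had the highest level of the 9 genes, also per length, with a mean of 64.3 CPM per kb of exon in controls and 140 in defeated mice. Its level was 30.6 CPM in the lowest control, 48.2 CPM at the median and 66.4 CPM in the highest, and 32.1, 99.5 and 252 CPM in defeated mice. The ranges overlapped, yet 29 of the 35 defeated mice lay above every control. The difference was 1.11 ± 0.16 on the log2 scale (SE), or 2.17-fold, with an edgeR adjusted p of 2.13e-05. Hbb-bt (ENSMUSG00000073940, chr7:103812524-103813996) ranged from 3.83 CPM through a median of 6.45 to 8.996 CPM in controls and from 3.67 through 14.1 to 36.7 CPM in defeated mice. Of these, 30 lay above every control. Its difference of 1.32 ± 0.18, or 2.50-fold, had the smallest p of all genes (edgeR adjusted p = 2.13e-05).

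The beta globin transcripts did not differ by the same factor. The ratio of Hbb-bs to Hbb-bt was 7.98 ± 1.16 in controls (SD, n = 19) and 7.05 ± 0.943 in defeated mice (n = 35), a log2 difference of -0.18 (permutation test within housing, p = 0.00312, adjusted p = 0.0125 over 4 ratios). It was lower in defeated mice in SH (mean log2 ratio 2.78 against 3.01) and in EE (2.83 against 2.95). The annotated transcripts were 92.7% identical where they align, and only uniquely aligned pairs were counted, so the division of pairs between these copies is uncertain.

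The alpha globin genes are a duplicated pair on chromosome 11, and their transcripts differ at 1 of 538 aligned positions. Their separate values are therefore uncertain. Only uniquely aligned pairs were counted, so pairs that fit both copies entered neither value. Sums and ratios that use these genes leave such pairs out as well. Hba-a1 (ENSMUSG00000069919, chr11:32283511-32284465) lay at 9.96, 16.5 and 23.4 CPM in the lowest, median and highest control and at 9.75, 29.2 and 89.5 CPM in defeated mice, with 23 of 35 above every control. Hba-a2 (ENSMUSG00000069917, chr11:32296489-32297298) lay at 5.14, 8.13 and 10.7 CPM in controls and at 4.51, 15.3 and 45.5 CPM in defeated mice, with 30 of 35 above every control. Their log2 differences of 1.09 ± 0.18 and 1.07 ± 0.17 were close to each other and to that of Hbb-bs (edgeR adjusted p = 0.000597 and 0.000268). The ratio of alpha to beta globin was 0.427 ± 0.0405 in controls and 0.403 ± 0.0400 in defeated mice, which did not pass the permutation test after adjustment (p = 0.043, adjusted p = 0.0861). The ratio of Hba-a1 to Hba-a2 was 1.88 ± 0.251 and 1.90 ± 0.204 (adjusted p = 0.645).

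Summed over the 4 globin genes, controls held 50.3 to 104 CPM with a median of 79.6, and defeated mice held 50.1 to 424 CPM with a median of 159. The spread was wider in the defeated mice, whose highest sum was 8.47 times their lowest, against 2.06 times in controls. The sum lay above every control in 29 defeated mice, which were 15 of 17 in SH and 14 of 18 in EE, or 16 of 19 SUS and 13 of 16 RES mice. EE SUS mouse 3 and SH SUS mouse 2 had the highest sums, at 424 and 403 CPM. EE SUS mouse 7 and SH SUS mouse 7 had the lowest sums of the defeated mice, at 50.1 and 66.1 CPM. The first lay just below the lowest control and the second within the range of controls.

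Alas2 (ENSMUSG00000025270, chrX:150547375-150570638) encodes the red cell form of the first enzyme of heme synthesis. It stood at 1.95, 3.03 and 4.75 CPM in the lowest, median and highest control and at 2.30, 6.51 and 16.6 CPM in defeated mice, with 26 of 35 above every control. The difference was 1.15 ± 0.17 on the log2 scale, or 2.22-fold (edgeR adjusted p = 2.13e-05). The ratio of Alas2 to the globin sum was 0.0398 ± 0.00599 in controls and 0.0404 ± 0.00433 in defeated mice and did not pass (permutation adjusted p = 0.631). The count depended on strand, and the reason was not tested. The 54 mice held 6572 pairs on the strand of Alas2 and 12854 without regard to strand, and with the unstranded counts the difference was 0.45 ± 0.10 and did not pass (edgeR adjusted p = 0.0803).

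Slc4a1 (ENSMUSG00000006574, chr11:102348824-102366203) encodes band 3, the anion exchanger and most abundant protein of the red cell membrane. It had few reads, between 0 and 8 pairs in controls and between 1 and 51 in defeated mice. No control reached the level that the low-count filter asks for, so the gene entered the test through defeated mice alone. It also passed without that filter. Its level was 0 to 0.400 CPM in controls and 0.0473 to 2.19 CPM in defeated mice, of which 20 lay above every control. The difference of 2.19 ± 0.40, or 4.57-fold, was the largest of the 9 (edgeR adjusted p = 0.002), with a 95% interval of 1.42 to 2.97. It did not pass in limma-voom (adjusted p = 0.081).

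Tent5c (ENSMUSG00000044468, chr3:100451628-100489324) encodes a poly(A) polymerase that lengthens the tails of messenger RNAs and is abundant in late red cell precursors. It ranged from 2.89 through 3.72 to 4.82 CPM in controls and from 3.61 through 5.38 to 11.5 CPM in defeated mice, and 21 of the 35 lay above every control. The difference was 0.62 ± 0.11, or 1.54-fold (edgeR adjusted p = 0.00183). Ube2l6 (ENSMUSG00000027078, chr2:84798828-84810335) encodes a conjugating enzyme for ISG15, a ubiquitin-like protein induced by interferon. It ranged from 3.09 through 3.85 to 5.19 CPM in controls and from 3.54 through 4.72 to 6.71 CPM in defeated mice, with 14 above every control. The groups overlapped widely, and the difference was 0.32 ± 0.07, or 1.25-fold (edgeR adjusted p = 0.0272).

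Apol11b (ENSMUSG00000091694, chr15:77633946-77643286) belongs to the apolipoprotein L family. It was near the limit of detection, with 0 to 7 pairs in controls and 1 to 24 in defeated mice, of which 17 lay above every control in CPM. Like Slc4a1, it met the low-count filter through defeated mice alone and also passed without that filter. The difference was 1.46 ± 0.31 with a 95% interval of 0.86 to 2.07 (edgeR adjusted p = 0.0285). Ube2l6 and Apol11b did not pass in limma-voom, and neither passed with choroid plexus and thalamus marker scores as covariates (edgeR adjusted p = 0.194 and 0.0985).

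**Figure D2:**
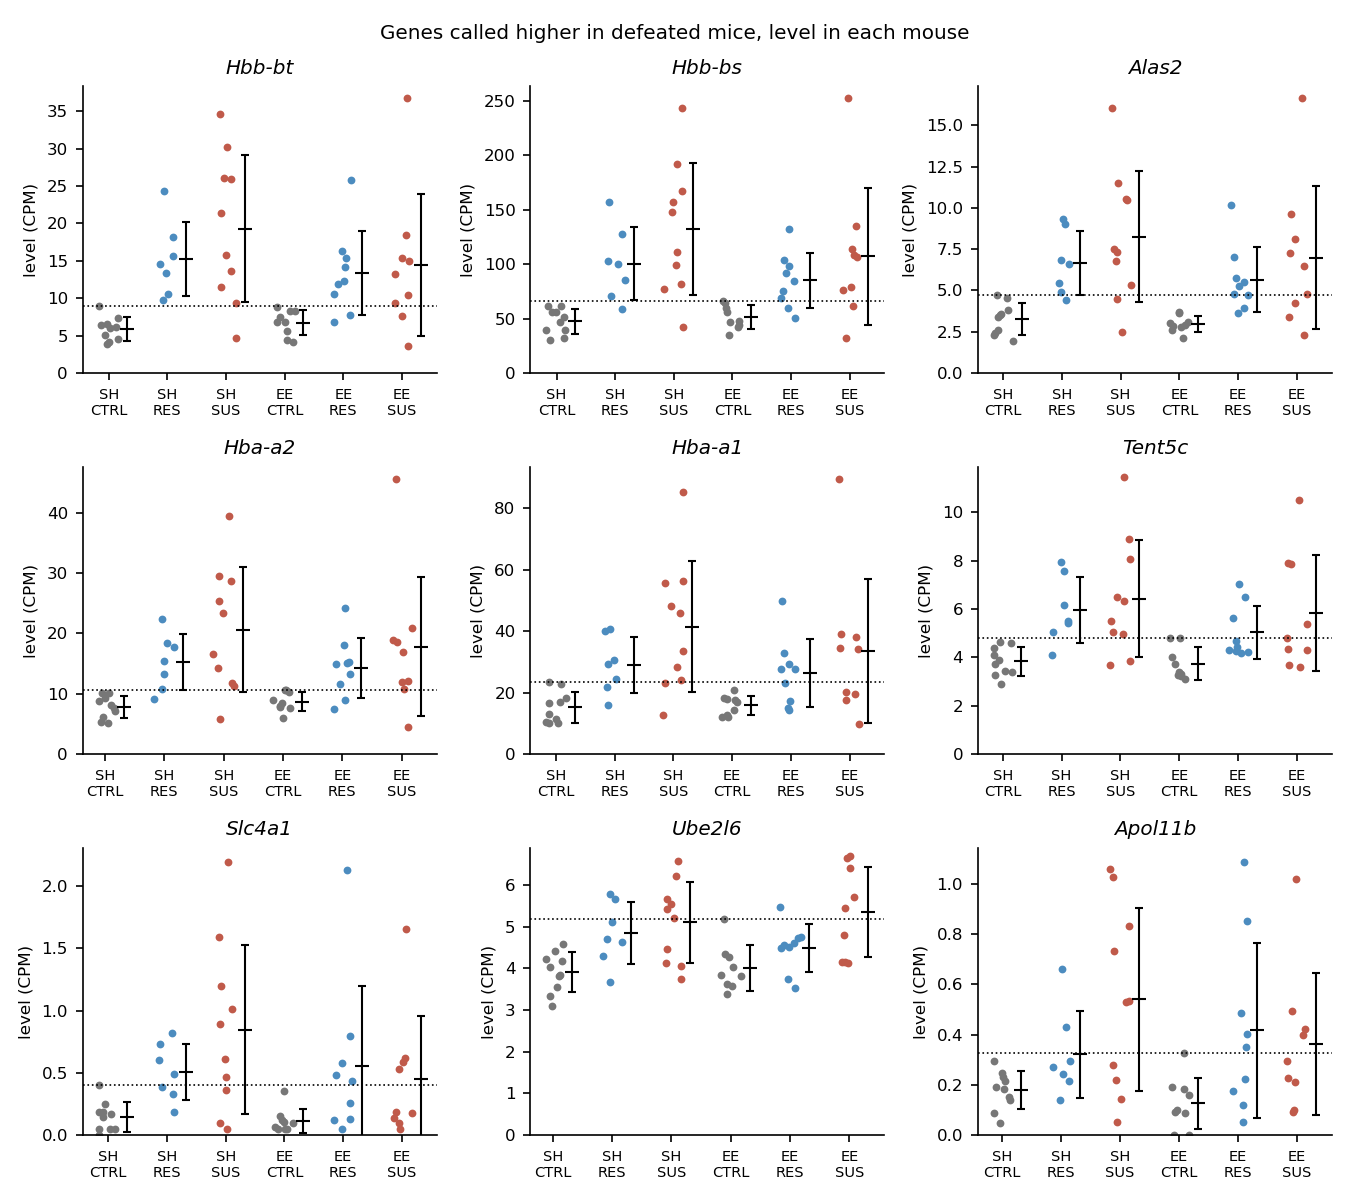
Each point is 1 mouse, the vertical axis is its level in CPM, and the 6 groups stand along the horizontal axis with their mean and SD as bars. The dotted line is the highest control mouse, which 30 of 35 defeated mice exceeded for Hbb-bt and 14 for Ube2l6. In each panel some defeated mice lie among the controls, and Slc4a1 and Apol11b lie near 0 in both control groups.

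The 9 genes were next followed mouse by mouse. Having been called for higher levels in defeated mice, they give these counts as a description. All 9 stood above every control in 9 defeated mice, and at least 1 did so in 32. In SH RES mouse 4, SH SUS mice 1, 2, 3, 9 and 10, EE RES mouse 6 and EE SUS mice 3 and 6 all were above, and in SH SUS mouse 7, EE RES mouse 1 and EE SUS mouse 7 none was. Across the tested genes, 7 (0.0383%) had at least 20 of the 35 defeated mice above every control, namely the 4 globin genes, Alas2, Tent5c and Slc4a1. No gene had as many defeated mice below every control.

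Within the 35 defeated mice the mean log2 level of the 4 globin genes was followed most closely by Alas2 (Pearson's r = 0.972, Spearman's rho = 0.969). Slc4a1 (r = 0.864, rho = 0.879), Tent5c (r = 0.860, rho = 0.875) and Ube2l6 (r = 0.747, rho = 0.765) came next among the called genes, and Apol11b had r = 0.672 and rho = 0.622. For each of these r, the permutation p of 1e-05 was the smallest that 100000 resamples can give (adjusted p = 5.43e-05 over 38 relations in both groups of mice). The rho of the first 4 had the same p (adjusted p = 7.6e-05), and that of Apol11b had p = 0.00011 (adjusted p = 0.000456). Without the 2 mice farthest from the median globin level, r stayed between 0.701 and 0.962. In the 19 controls only Alas2 of these 5 passed (r = 0.755, permutation p = 0.00027, adjusted p = 0.000933, rho = 0.795, permutation p = 0.00012, adjusted p = 0.000456, r = 0.650 without the 2 farthest mice). Slc4a1 had r = 0.340 and rho = 0.374 in controls (permutation p = 0.153 and 0.115, adjusted p = 0.301 and 0.208), and without the 2 farthest mice its r was 0.697. Tent5c had r = 0.337 and rho = 0.414 (permutation p = 0.158 and 0.0798, adjusted p = 0.301 and 0.164), and r was 0.495 without these mice. For Ube2l6 and Apol11b r was 0.313 and 0.0179 and rho was 0.284 and 0.144 (permutation p of r = 0.193 and 0.942 and of rho = 0.237 and 0.555, adjusted p of r = 0.318 and 0.967 and of rho = 0.347 and 0.680), and r was 0.351 and 0.208 without them. The values for controls thus rest in part on 2 mice, and whether they differed from those of defeated mice was not tested.

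Vessel markers were set beside the globin level as well. In the defeated mice the mean log2 level of 15 endothelial genes had r = 0.021 with the globin level (rho = 0.0877, permutation p = 0.903 and 0.615, adjusted p = 0.967 and 0.731, r = 0.128 without the 2 farthest mice). In controls the same relation had r = 0.768 and rho = 0.796 (permutation p = 0.00012 and 6e-05, adjusted p = 0.000456 and 0.000326, r = 0.673 without the 2 farthest mice). Whether the relation differed between controls and defeated mice was not tested. The endothelial list itself had no called gene, with 10 of its 15 genes higher and a median of 0.04 on the log2 scale. With the endothelial score as a covariate, a setting chosen after the data were seen, all 9 genes passed again, and Hbb-bs differed by 1.10.

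**Figure D3:**
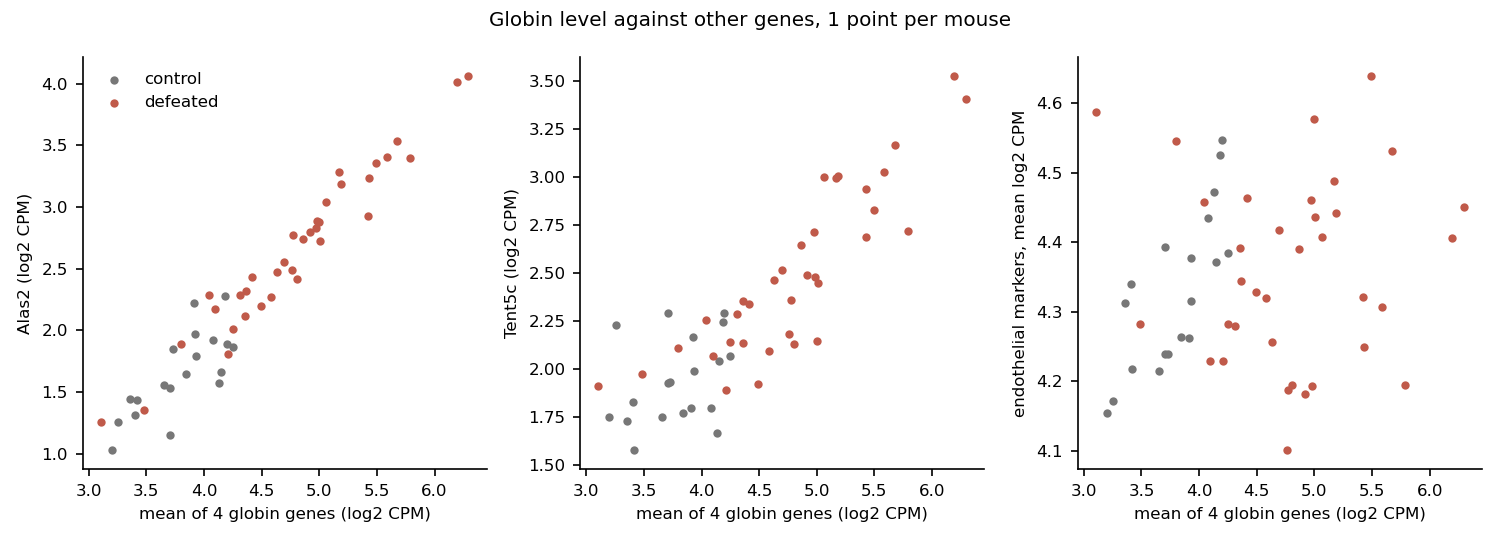
Each point is 1 mouse, with the mean log2 CPM of the 4 globin genes on the horizontal axis and Alas2, Tent5c or the mean of 15 endothelial genes in log2 CPM on the vertical axis. In defeated mice (red) Alas2 and Tent5c climb with the globin level (r = 0.972 and 0.860) and the endothelial genes have r = 0.021, while in controls (gray) the endothelial genes have r = 0.768.

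Other genes of the red cell list were weighed next. The list, chosen with earlier results of these data known, held 13 genes, of which 10 were tested and 7 were called. Its median difference was 1.10 against -0.0020 over all genes tested. Bpgm (0.03 ± 0.02, edgeR adjusted p = 0.959) and Fech (-0.02 ± 0.02, edgeR adjusted p = 0.973) serve red cell metabolism and heme synthesis but stood above 47 CPM in every mouse of both groups, and neither passed. Ahsp, Hemgn and Epb42 were not tested. Epb42 had 6 pairs in all controls together and 40 in all defeated mice. Hemgn had 1 pair and 9 pairs.

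Both behavioral outcomes were set against the same controls. SUS mice differed in 12 genes (0.0656% of those tested), all higher, which were the 9 above and Adgrf4, Ccr2 and Cd74. RES mice differed in 3 genes (0.0164%), Hbb-bt, Alas2 and Hbb-bs, also higher. DESeq2 called 19 genes (0.104%) for SUS and 5 (0.0273%) for RES mice, and limma-voom called 8 (0.0438%) and 0, with 561 genes at an unadjusted p of 0.05 for RES mice. The difference of Hbb-bs was 1.27 ± 0.17 in SUS mice (edgeR adjusted p = 1.09e-05) and 0.90 ± 0.18 in RES mice (edgeR adjusted p = 0.0261). That of Alas2 was 1.29 ± 0.18 and 0.98 ± 0.19 (edgeR adjusted p = 1.4e-05 and 0.0261). For Ube2l6 the values were 0.40 ± 0.07 in SUS mice (edgeR adjusted p = 0.00346) and 0.23 ± 0.08 in RES mice (edgeR adjusted p = 0.999).

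The direct comparison of SUS with RES mice called no gene in edgeR, DESeq2 or limma-voom, with 616 genes (3.37%) at an unadjusted p of 0.05 in edgeR, 585 in DESeq2 and 600 in limma-voom. Of the 9 genes, Hba-a1 stood highest in SUS relative to RES mice, at 0.44 on the log2 scale with a 95% interval of 0.05 to 0.83 (edgeR adjusted p = 1). Each of the 9 genes was higher in SUS than in RES mice, none at an adjusted p of 0.05. The unadjusted intervals of Hbb-bs (0.03 to 0.72), Hba-a2 (0.02 to 0.74) and Ube2l6 (0.02 to 0.32) also lay above 0, and those of the other genes reached below it. For Hbb-bt the interval ran from -0.15 to 0.63 and for Slc4a1 from -0.44 to 0.94, so these data set no close limit on a difference between outcomes. Ccr2, the receptor of blood monocytes for the chemokine CCL2, differed from controls by 1.43 ± 0.31 in SUS mice (edgeR adjusted p = 0.0375) and by 0.28 ± 0.36 in RES mice. Cd74, the invariant chain of MHC class II molecules, differed by 1.11 ± 0.24 in SUS mice (edgeR adjusted p = 0.0419) and by 0.49 ± 0.27 in RES mice. Adgrf4, an adhesion receptor gene, differed by 0.36 ± 0.07 (edgeR adjusted p = 0.024) and 0.06 ± 0.08. For none of these 3 did SUS and RES mice differ at an adjusted p of 0.05 (Ccr2 1.15 ± 0.31, Cd74 0.62 ± 0.24, Adgrf4 0.30 ± 0.08, each with an edgeR adjusted p of 1).

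Of the 9 called genes, the 7 that could be tested in each housing alone had the same sign in both. They were called from these same mice pooled, so the shared sign is a description and no separate support. In SH mice alone 5 of 17725 genes (0.0282%) were called, the 4 globin genes and Alas2, all higher in defeated mice. DESeq2 called 8 genes (0.0451%) there, 7 of them among the 9, and limma-voom called 1 (0.00564%), Hbb-bs. In EE mice alone none of 17587 genes was called by edgeR, where 1538 genes (8.75%) had an unadjusted p under 0.05. DESeq2 called 5 genes (0.0284%) in EE mice, 4 higher and 1 lower, and only 1 of the 5 was among the 9 called genes. There limma-voom called none, with 1449 at an unadjusted p of 0.05. Hbb-bt differed by 1.57 ± 0.24 in SH (edgeR adjusted p = 0.0031) and by 1.06 ± 0.25 in EE (edgeR adjusted p = 0.304). Alas2 differed by 1.21 ± 0.22 in SH (edgeR adjusted p = 0.0195) and 1.09 ± 0.24 in EE (edgeR adjusted p = 0.178). Slc4a1 and Apol11b had too few reads to be tested in EE mice alone.

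The interaction of defeat with housing called no gene in edgeR, DESeq2 or limma-voom, and 1088 genes (5.95%) had an unadjusted p under 0.05 in edgeR, 1065 in DESeq2 and 999 in limma-voom. The difference between the housings, EE minus SH, was -0.51 for Hbb-bt with a 95% interval of -1.21 to 0.19, and -0.11 for Alas2 with an interval of -0.76 to 0.54 (edgeR adjusted p = 0.853 and 0.972). The smallest interaction p belonged to Ccdc74a (0.25 ± 0.06), Slc5a11 (1.13 ± 0.30) and Rnf39 (-0.58 ± 0.16), each with an edgeR adjusted p of 0.815.

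**Figure D4:**
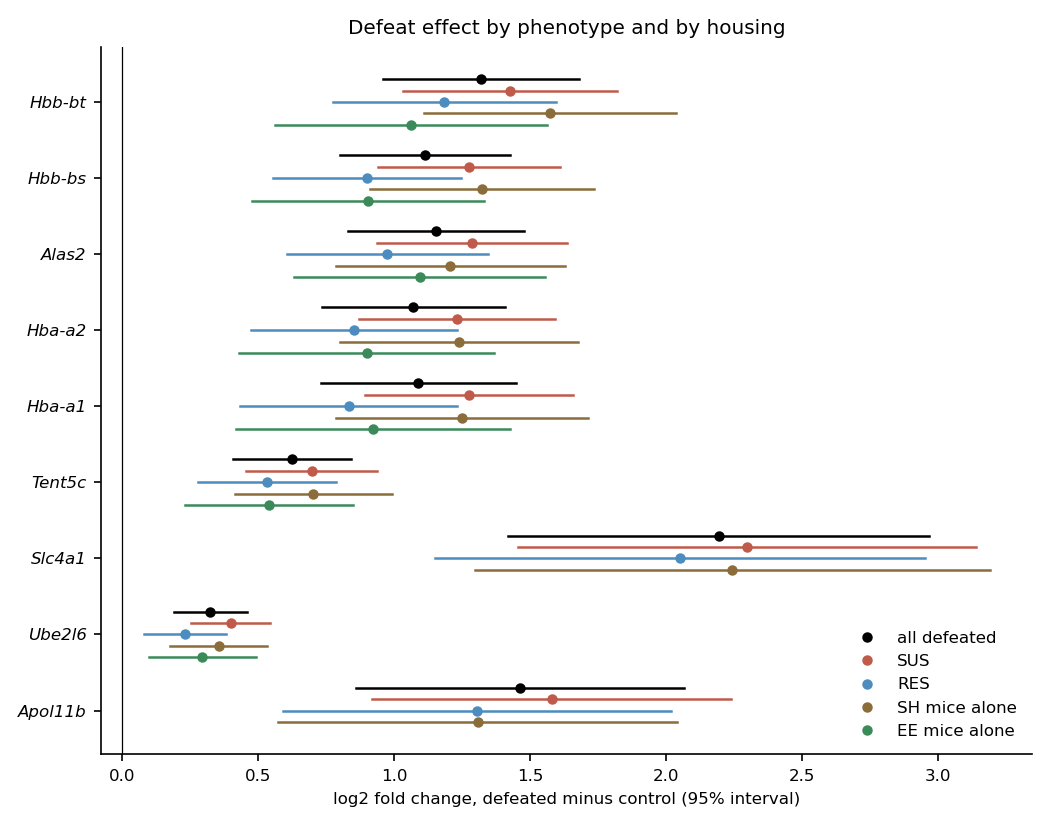
Points are log2 fold changes of defeated against control mice (horizontal axis) for the 9 called genes, and lines are 95% intervals. All intervals drawn, for all defeated mice, SUS, RES, SH mice alone and EE mice alone, lie above 0, and Slc4a1 and Apol11b have no value in EE mice alone. The genes were called from these mice pooled, so the intervals of the parts are a description.

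Genes outside the red cell were followed through 31 other lists of pathways and cell types, and none of their members was called in the comparison of all defeated with all control mice. Over all genes tested, 2.46% reached an unadjusted p of 0.05 in each direction. In the interferon and antigen presentation list 25 of 28 genes were higher, with a median of 0.08, and 6 reached an unadjusted p of 0.05. Rsad2, the antiviral enzyme viperin, lay at 0.737 to 1.89 CPM in controls and 0.980 to 3.27 CPM in defeated mice and differed by 0.47 ± 0.12 (edgeR adjusted p = 0.243). Cd74 differed by 0.86 ± 0.23 (edgeR adjusted p = 0.342) and Oas1a, a sensor of viral RNA, by 0.46 ± 0.15 (edgeR adjusted p = 0.729).

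Neuropeptides and neurotrophins had 5 of 24 genes higher and a median of -0.08. Cort, the interneuron peptide cortistatin, lay at 1.93 to 4.49 CPM in controls and 1.32 to 3.58 CPM in defeated mice, a difference of -0.35 ± 0.08 that missed the threshold in edgeR (adjusted p = 0.106) and passed it in DESeq2 (adjusted p = 0.0289). Npy, the neuropeptide Y gene, differed by -0.16 ± 0.05 (edgeR adjusted p = 0.572) and Vgf by 0.15 ± 0.08 (edgeR adjusted p = 0.953). In the list of adult neurogenesis, a process of the dentate gyrus, 2 of 22 tested genes were higher, with a median of -0.07. The proliferation genes Top2a and Mki67 differed by -0.26 ± 0.10 and -0.20 ± 0.09, and Sox4, of newborn neurons, by -0.11 ± 0.04 (edgeR adjusted p = 0.808, 0.953 and 0.808).

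Lists linked to stress and activity had medians near 0. Immediate early genes, which neurons switch on when active, had 11 of 22 genes higher, a median of -0.0015 and no gene at an unadjusted p of 0.05. Glucocorticoid receptors and their target genes had 7 of 22 higher and a median of -0.02. Nr3c2, the mineralocorticoid receptor, differed by -0.06 ± 0.03 with a 95% interval of -0.11 to -0.01 (edgeR adjusted p = 0.888). Clock genes had 13 of 18 higher and a median of 0.01, led by Ciart at 0.23 ± 0.08 (edgeR adjusted p = 0.752). Cholesterol synthesis had 19 of 22 higher (median 0.03), heat shock and ER chaperones 23 of 25 (0.02), synaptic vesicle release 24 of 30 (0.04) and nuclear genes of oxidative phosphorylation 66 of 79 (0.01). Ribosomal protein genes had 10 of 81 higher (median -0.01) and genes of the mitochondrial genome 1 of 13 (-0.04). Glutamate receptor subunits had 11 of 24 higher (-0.0072), GABA-A receptor subunits 5 of 13 (-0.02) and fibroblast and collagen genes 11 of 21 (0.01).

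The lists of tissue beside the dentate gyrus were examined because the punches held varying amounts of it. All 12 thalamus genes were higher, with a median of 0.45, and 6 of them had an unadjusted p under 0.05. Prkcd, which marks thalamic relay neurons, ranged from 10.6 to 76.9 CPM in controls and from 10.9 to 154 CPM in defeated mice and differed by 0.75 ± 0.27 (edgeR adjusted p = 0.808). The median of this list was 0.01 in SH mice alone and 0.92 in EE mice alone. All 10 tested choroid plexus genes were lower, with a median of -0.48, which was -0.52 in SH and 0.17 in EE. The summed thalamus level ran from 150 to 533 CPM in controls and from 151 to 843 CPM in defeated mice, and the summed choroid plexus level from 18.96 to 1005 CPM and from 19.1 to 556 CPM. The medians of these sums were 243 and 276 CPM for thalamus and 24.5 and 23.7 CPM for choroid plexus. For Ttr the sign of the difference was not the same in edgeR and DESeq2. In the defeated mice the globin level had r = 0.207 with the thalamus genes and r = 0.245 with the choroid plexus genes (rho = 0.236 and 0.359, permutation p of r = 0.232 and 0.156 and of rho = 0.172 and 0.0353, adjusted p of r = 0.353 and 0.301 and of rho = 0.287 and 0.0894). Without the 2 farthest mice these r were 0.228 and 0.00148. With both scores as covariates the 4 globin genes, Alas2, Tent5c and Slc4a1 passed, and Hbb-bs differed by 1.07.

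All 14 dentate granule cell genes were lower, none called, with a median of -0.09. Calb1, the calcium buffer calbindin of these cells, differed by -0.11 ± 0.06 (edgeR adjusted p = 0.953) and Prox1 by -0.10 ± 0.07 (edgeR adjusted p = 0.959). The median was 0.0013 in SH and -0.16 in EE. Astrocyte genes had 3 of 15 higher (median -0.03), led by the glutamate transporter gene Slc1a3 at -0.09 ± 0.03 (edgeR adjusted p = 0.677). Microglia genes had 8 of 16 higher (0.0024), with P2ry13 at -0.14 ± 0.04 (edgeR adjusted p = 0.677). CA3 pyramidal cells had 7 of 9 higher (0.07), CA1 pyramidal cells 2 of 7 (-0.04), hilar mossy cells 3 of 7 (-0.01), GABA interneurons 5 of 16 (-0.03), mature oligodendrocytes 8 of 16 (-0.0042), their precursors 2 of 12 (-0.04), striatum 5 of 10 (-0.0054) and cerebellar granule cells 3 of 4 (0.47).

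**Figure D5:**
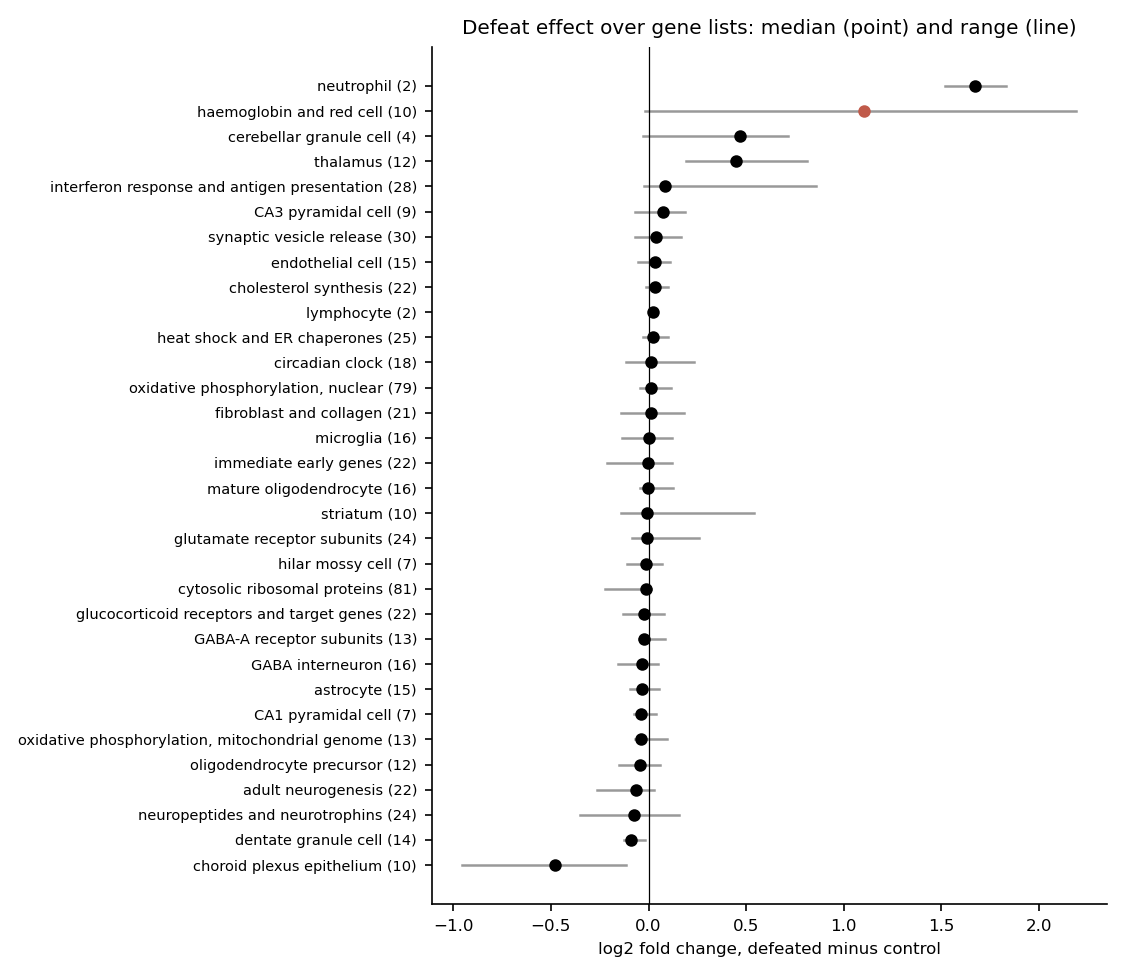
Each row is a gene list with its number of tested members in parentheses. The point is the median and the line the range of the members' log2 fold change, defeated minus control. Only the red cell list (red point, median 1.10) holds called genes. The neutrophil list has a median of 1.68 over 2 tested genes and the cerebellar granule cell list 0.47 over 4. These lists, the thalamus list (0.45) and the choroid plexus list (-0.48) lie farther from 0 than the dentate granule cell list (-0.09).

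White blood cells had few transcripts. Only 2 of 11 neutrophil genes were tested, S100a9 with a difference of 1.83 ± 0.58 and Lcn2 with 1.52 ± 0.56 (edgeR adjusted p = 0.677 and 0.809). S100a9 had a median of 2 pairs in controls and 6 pairs in defeated mice and at most 17 and 272 pairs. The highest value came from EE SUS mouse 7, which also held the most pairs of S100a8 (226), Ngp (32), Camp (15), Retnlg (32) and Lcn2 (478), and whose globin sum of 50.1 CPM was the lowest of all mice. Only 2 of 12 lymphocyte genes were tested, with Ighm at 0.03 ± 0.05 and Trbc2 at 0.02 ± 0.16 (edgeR adjusted p = 0.981 and 0.995).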

How the data were processed

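RNA came from the ventral dentate gyrus of individual, unpooled mice, and samples were grouped by their labels. The authors prepared stranded total RNA libraries, aligned read pairs with STAR to mm10 (GRCm38), and the deposited values are unnormalized gene counts of read pairs in unstranded, forward-strand and reverse-strand columns. STAR and Picard are named in the submitters' processing notes without versions. The study's methods name featureCounts, whereas the files are laid out as the gene counter inside STAR writes them, which keeps uniquely aligned pairs only. The reverse-strand counts were used, since the forward strand held 3.51% to 4.13% of stranded counts. Summary lines without a gene entered neither library sizes nor tests. They took 13.9% to 19.9% (unmapped), 8.70% to 12.1% (multimapping), 19.9% to 28.8% (no feature) and 0.836% to 1.12% (ambiguous) of pairs. Of 45318 Ensembl identifiers, 44585 matched GENCODE M21 for names and coordinates.

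Counts were normalized by TMM and filtered with filterByExpr, and the quasi-likelihood test of edgeR 4.0.16 in R 4.3.3 was fitted over 54 mice with housing as a covariate and Benjamini-Hochberg adjustment over all genes tested. Phenotype with 3 levels replaced defeat for SUS and RES, each housing was fitted alone, and an interaction term compared the housings. limma 3.58.1 and DESeq2 1.42.0 were alternatives. Intervals are the estimate ± 1.96 SE. CPM are gene counts scaled by TMM library size, and mean log2 levels used a prior count of 2. Technical measures and globin ratios were compared by two-sided permutation of defeat labels within housing, and correlations by permutation (100000 resamples, Python 3.11.15, NumPy 2.4.6). The scripts were tested on simulated counts. Depth, with a median of 44765652 pairs per library, limits precision most for genes of few pairs such as Slc4a1.

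The members and gene lists were chosen with earlier results of these data known. Named genes were up to 12 called genes in each direction with the smallest p and 5 with the largest fold among those of at least 1 CPM, leaving out unnamed models and pseudogenes, up to 4 genes per list with the smallest p, and 3 each for the interaction and for SUS against RES. List genes are named here mainly where their unadjusted p was under 0.05. Mical1, Acvr1c, Ctla2a, Ttr, Prox1, Bpgm, Fech, Adgrf4, Ccr2, S100a8, Ngp, Camp, Retnlg, Hemgn and Epb42 fall outside the rule or were chosen after their values were seen. The other alternatives tried were other size factors, other filters, unstranded counts, the first run of EE control mouse 9 alone, a replicate block, 6 group means, no housing term, marker scores as covariates, a stricter threshold, and each mouse left out in turn. The labels name no batch or date. Some genes that the rule names are not reported here.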

Additional observations from a re-analysis of the deposited data

Results flagged for a closer look

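Across 24 measures in the 6 groups, 144 groups of values were checked for a mouse that stood apart by Dixon's criterion, and 10 did so, where chance alone flags about 1 in 20. Slc4a1 was 0.353 CPM in EE control mouse 5 and at most 0.149 CPM in the other EE controls, so the highest EE control for this gene stood apart from its group.

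S100a9 was 13.3 CPM in EE SUS mouse 7 against at most 0.792 CPM in the other EE SUS mice, and 0.726 CPM in SH control mouse 3 against at most 0.138 CPM in the other SH controls. Ttr was 1.94 CPM in SH RES mouse 7 against at most 0.330 CPM in the rest of that group. Top2a was 5.70 CPM in SH RES mouse 5 against at most 3.25 CPM in the other SH RES mice, and 2.43 CPM in EE control mouse 5 against at least 3.83 CPM in the other EE controls.

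The remaining 4 concern the libraries. The gene count of EE control mouse 9, the sum of its 2 runs, was 45872357 pairs against at most 24059115 in the other EE controls. The share of unmapped pairs was 18.8% in SH RES mouse 3 against at most 15.2% in its group, and 19.9% in EE SUS mouse 5 against at most 17.4%. The share of multimapping pairs was 8.70% in EE SUS mouse 8 against at least 9.87%.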

How the results depend on the processing

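The count of 9 genes stayed within 1.5 times under DESeq2 (13), limma-voom (6), sample quality weights (8), other size factors (9), no low-count filter (9), a filter of 1 CPM in 19 mice (7), unstranded counts (8), the first run of EE control mouse 9 alone (9), 6 group means (8), no housing term (9), choroid plexus and thalamus covariates (7) and an adjusted p of 0.01 (7). The study's criterion of an unadjusted p of 0.05 and a fold over 1.3 in limma-voom gave 93 genes (0.509%). Leaving out each mouse in turn gave 7 to 11 genes. Hbb-bt, Hbb-bs, Hba-a1, Hba-a2, Alas2, Tent5c and Slc4a1 passed in all 54 of these fits, Ube2l6 in 48 and Apol11b in 45, and all 9 in 42. Ube2l6 was lost without SH control replicate 1, 3 or 8 or EE control replicate 2, 3 or 5, and Apol11b without SH control replicate 5, 8 or 9, SH SUS replicate 10 or EE control replicate 3, 4, 5, 6 or 9. For 56 uncalled genes, 827 of 836 alternative values kept their sign and their side of the threshold.

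Same-numbered mice of different groups had a median correlation of 0.03, with 32 of 126 pairs over 0.1, against a median of -0.0040 for mice of different numbers. Of the 54 mice, 9 were closest to a mouse of their own number. Whether replicate numbers pair the mice was not tested. With the replicate block 8 genes passed, without Ube2l6.

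DESeq2 gave 19 genes for SUS, 5 for RES, 8 within SH and 5 within EE, and limma-voom 0 for RES and 1 within SH, against 12, 3, 5 and 0 in edgeR. DESeq2 also called Mical1 (-0.16), Acvr1c (0.20), Ctla2a (0.45) and Cort (-0.35), and with it Ttr was 0.71 in place of -0.84. The cause was not tested.

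3 alternatives were chosen after seeing the data. Without the 6 mice over 100 CPM of Ttr, 7 genes passed, and Ube2l6 and Apol11b did not (edgeR adjusted p = 0.0985 and 0.0816). The endothelial covariate gave 10. A score of the 4 globin genes and Alas2 as covariate is built from 5 of the 9 called genes, so their loss follows from its construction and is no test of them. With it 0 genes passed in edgeR (827 at an unadjusted p under 0.05), and Hba-a2 (-0.090), Hba-a1 (-0.13), Rsad2 (-0.040) and Bpgm (-0.030) changed sign. Tent5c was then 0.02, Slc4a1 0.14, Ube2l6 0.03 and Apol11b 0.33.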

Other observations

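Over the 35 defeated mice, 18279 genes other than the 4 globin genes were ranked by the correlation of their log2 level with the mean globin level, as a description. Only 9 genes had r of at least 0.6 and 3 had r of -0.6 or lower. Among the 9 were Alas2, Slc4a1, Tent5c, Ube2l6, Rsad2, Apol11b and Bpgm. Of these, Rsad2 (r = 0.708, rho = 0.637) and Bpgm (r = 0.607, rho = 0.577) were not called between defeated and control mice. Both stand at the top of a ranking of 18279 genes by this same r. The adjustment covers 38 relations only, so the p of these 2 genes are a description and no test. Their permutation p for r was 1e-05 and 8e-05 (adjusted p = 5.43e-05 and 0.000338) and for rho 7e-05 and 0.0003 (adjusted p = 0.000332 and 0.00104), and without the 2 farthest mice r was 0.618 and 0.438. In controls their r was 0.346 and 0.025 and their rho 0.470 and 0.0860 (permutation p of r = 0.147 and 0.917 and of rho = 0.0437 and 0.724, adjusted p of r = 0.301 and 0.967 and of rho = 0.104 and 0.786). The mean of Bpgm was 52.8 ± 3.43 CPM in controls (SD, n = 19) and 53.7 ± 2.51 CPM in defeated mice (n = 35). Cort, which stood lower in defeated mice without passing in edgeR, had r = 0.457 and rho = 0.426 with the globin level among them (permutation p = 0.00564 and 0.0115, adjusted p = 0.0179 and 0.0335), which fell to 0.318 without the 2 farthest mice.

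Genes that missed the threshold by the least were chosen after their values were seen. Mical1, an enzyme that takes actin filaments apart, was 12.2 ± 0.936 CPM in controls and 11.0 ± 1.005 CPM in defeated mice (edgeR adjusted p = 0.0762). Acvr1c, a receptor for activin-like ligands, was 64.0 ± 7.54 and 73.7 ± 9.17 CPM (edgeR adjusted p = 0.112), and Ctla2a, a protease inhibitor gene, was 3.61 ± 0.803 and 4.99 ± 1.83 CPM (edgeR adjusted p = 0.141). Among the genes of smallest p between SUS and RES mice were C3, the complement component (1.301 ± 0.31), and Dtl (-0.47 ± 0.12), each with an edgeR adjusted p of 1.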
